A study of Homo sapiens with 16 samples.

Results

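In pancreatic cancer cells under gemcitabine and genistein, RNA sequencing followed 10 genes of the integrated stress response: the transcription factors ATF4, DDIT3 (CHOP), ATF3, CEBPB and CEBPG and the regulators TRIB3, CHAC1, DDIT4, SESN2 and PPP1R15A. They were chosen by symbol for their place in the pathway, out of 63677 genes in the count table, with earlier results of these data known. Counts of calls among them beside all genes are therefore a description. All 10 passed the filter on low counts in both cell lines. The cells were Mia-PaCa-2 and PANC-1, 2 established human lines from pancreatic ductal adenocarcinomas. Each line was kept as a control, or was given 40 nM gemcitabine, 50 µM genistein, or both drugs at those concentrations, and RNA was taken after 24 hours. Each of the 8 groups had 2 biological replicates, which makes 16 libraries. Gemcitabine is a deoxycytidine analogue that stops DNA synthesis, and genistein is a soy isoflavone that binds estrogen receptors and inhibits tyrosine kinases. All cells grew in DMEM with serum, the labels name no vehicle for the control, and each line is a single model of the disease. Per the study's methods genistein was dissolved in DMSO and gemcitabine was not. Whether the control and gemcitabine groups received DMSO is not given, so that a part of the solvent cannot be told apart from genistein.

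In the integrated stress response, kinases that sense unfolded protein, lack of amino acids, viral RNA or heme deficiency phosphorylate the translation factor eIF2. General translation falls, while the ATF4 messenger is translated more, so that much of the control of ATF4 lies beyond what its RNA level shows. ATF4 pairs with C/EBP proteins on a shared DNA element and raises amino acid supply genes, the pro-apoptotic factor DDIT3, and a set of feedback regulators. Several of these genes also answer to other signals, such as DNA damage or growth factors.

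The members were located on GRCh37, and all are protein coding. ATF4 lies at chr22:39915700-39918688 and is the central factor of the pathway. DDIT3, at chr12:57910371-57915520, encodes CHOP, a partner of C/EBP proteins linked to cell death. ATF3, at chr1:212738676-212794119, encodes a stress-induced relative of ATF4. The C/EBP partners are CEBPB at chr20:48807367-48809205 and CEBPG at chr19:33864591-33873592. The feedback arm holds PPP1R15A (GADD34, chr19:49375469-49379316), which brings a phosphatase to eIF2, and TRIB3 (chr20:343479-378203), a pseudokinase that binds ATF4 and CHOP. CHAC1, at chr15:41245160-41248710, degrades glutathione. DDIT4 (REDD1, chr10:74033678-74035794) and SESN2 (chr1:28586029-28609002) restrain the growth kinase complex mTORC1. The exons of DDIT3 overlap those of MARS1 on the other strand over 27.2% of their length, and those of CEBPB overlap the antisense gene CEBPB-AS1 over 12.6%; how the counting treated strand is not given in the sources used here.

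Some members carry the core of the element that ATF4 and C/EBP proteins share. The letters TGATGNAA were searched on both strands in RefSeq promoter windows (GRCh38.p14), which run from 250 bases before to 50 bases after a start site. They were found in 3 of 17 windows, belonging to 3 of the 10 members, and in 3.62% of all 35116 windows of that length. The 3 stretches shown are all the matches found, in ATF3, CHAC1 and CEBPG, and no link to the comparisons that follow was tested. All are written along the + strand, which is the strand of each gene, with the matched letters in capitals.
ATF3, chr1:212565190-212565249: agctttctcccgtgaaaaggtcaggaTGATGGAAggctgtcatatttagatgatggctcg
CHAC1, chr15:40953236-40953295: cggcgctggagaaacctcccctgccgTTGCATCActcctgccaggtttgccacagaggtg
CEBPG, chr19:33374045-33374104: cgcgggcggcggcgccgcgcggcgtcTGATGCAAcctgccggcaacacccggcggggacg
The match began 191 bases before the start site in ATF3, 209 bases before it in CHAC1, where it reads on the opposite strand, and 42 bases before it in CEBPG. A match describes letters only, and the other members may carry the element outside these windows.

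Libraries held between 12943482 and 31991860 counted reads. Replicates differed by more than sampling noise, with a chi-square per degree of freedom from 2.7 in PANC-1 with genistein to 32 in PANC-1 controls. The keratins KRT8 and KRT18 were at 369 FPKM or more in every library. EPCAM had no count in any Mia-PaCa-2 library and CDH1 at most 2, whereas both were present in PANC-1. Acinar, islet and stromal markers had at most 2 counts, and CDH5 was at 0.269 to 1.72 FPKM in Mia-PaCa-2 with at most 1 count in PANC-1. CD68 had at most 4 counts in Mia-PaCa-2 and 17 in PANC-1, but stood at 14.2 to 37.6 and 108.3 to 221 FPKM, so that the count and FPKM tables disagree on it, and the cause was not tested. The libraries also differed in how counts depended on GC content, with slopes of -0.21 and -0.13 log2 units per 10 percentage points of GC in Mia-PaCa-2 controls and of 0.28 and -0.08 in PANC-1 controls. In such bulk samples a change in the share of cells that express a gene and a change in RNA per cell cannot be told apart.

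Levels are given as FPKM, fragments per kilobase of transcript scaled to library size, as the authors calculated them. Differences are log2 fold changes with their standard errors (SE) from limma-voom on the counts, with Benjamini-Hochberg adjustment over all genes tested. A gene was called when its adjusted p was at most 0.05, its log2 fold change at least 0.4 in size and its mean FPKM above 1. The plot of the members' levels shows every library. Statements that the libraries of groups lay apart or did not overlap refer to FPKM, not to the normalised counts that were tested. With so few libraries per group such separation can also arise by chance. The share of all genes separated in this way was not counted, so these statements are a description.

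**Figure D1:**
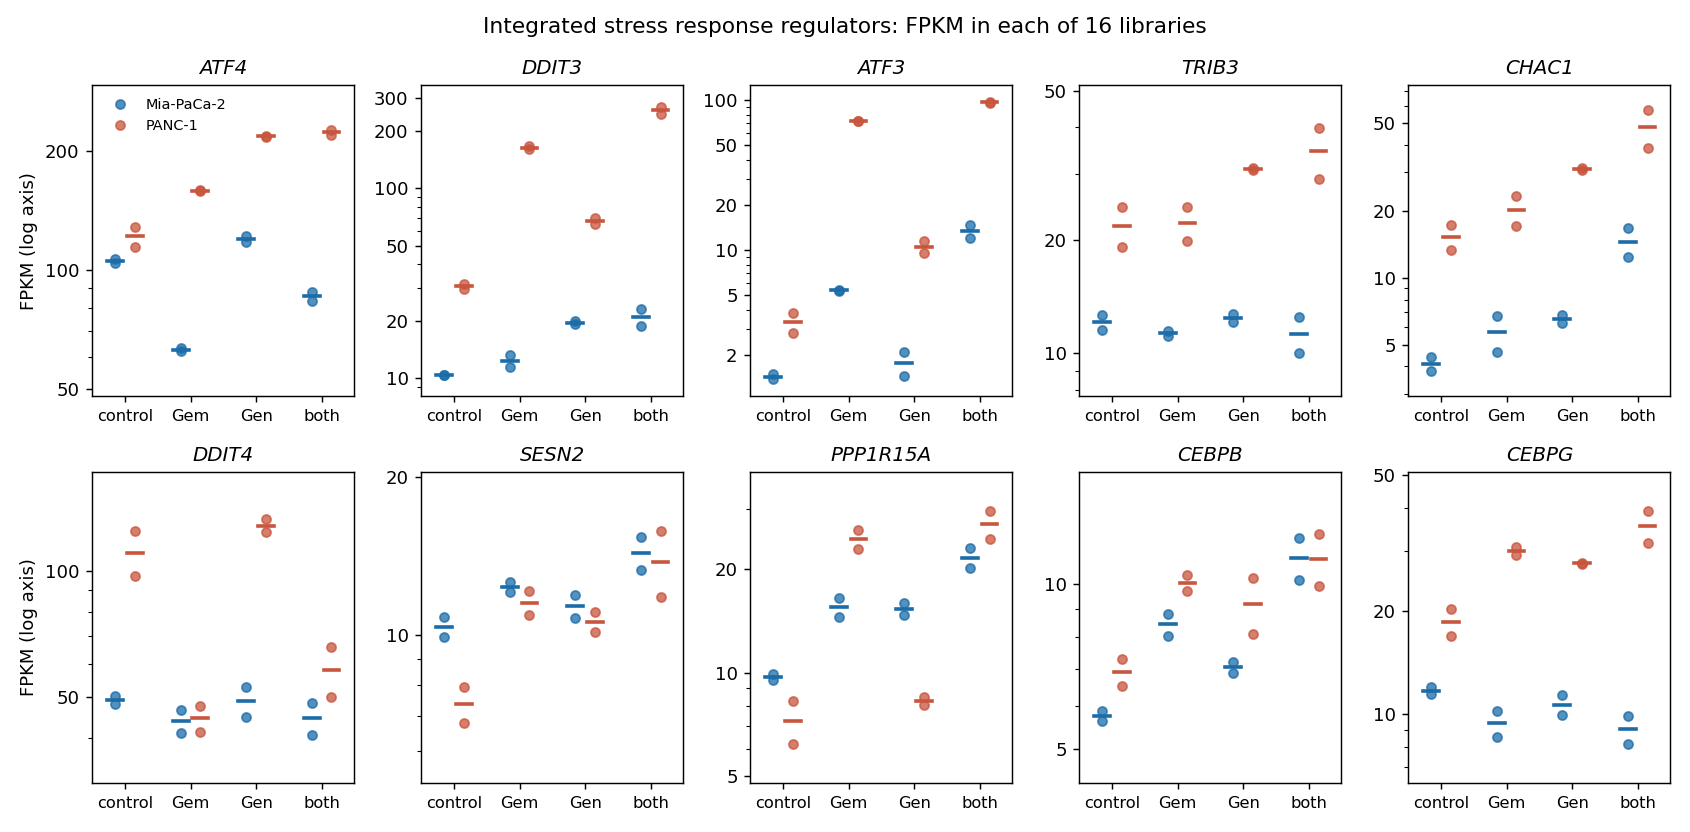
FPKM (log axis) of the 10 members in 16 libraries, by treatment (control, Gem for gemcitabine, Gen for genistein, both) and cell line. Each point is a library and each bar is the mean of 2 libraries. ATF3 and DDIT3 spread most in PANC-1, from 2.81 to 97.1 and from 29.5 to 270.2 FPKM, while TRIB3 and DDIT4 in Mia-PaCa-2 stay between 10.0 and 12.7 and between 40.5 and 52.9 FPKM.

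In untreated cells most members were more abundant in PANC-1 than in Mia-PaCa-2. ATF4 was among the most abundant members in both lines, at 106.9 and 103.9 FPKM in the Mia-PaCa-2 controls and 129 and 114.5 FPKM in the PANC-1 controls, and did not pass the test between them (log2 0.18, SE 0.09, adjusted p = 0.121). DDIT3 was at 10.5 and 10.5 FPKM in Mia-PaCa-2 and at 29.5 and 31.5 FPKM in PANC-1, a log2 difference of 1.48 (SE 0.13, adjusted p = 3.1e-07). CHAC1 showed the largest difference among the members, with 4.41 and 3.82 FPKM against 17.4 and 13.4 FPKM (log2 2.04, SE 0.33, adjusted p = 0.00011). The lowest PANC-1 library exceeded the highest Mia-PaCa-2 library for DDIT3 and for CHAC1.

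Altogether 8 of the 10 members were called between the untreated lines, 6 of them higher in PANC-1 and 2 lower, against 52.2% of the 17863 genes tested (27.9% higher, 24.3% lower). Higher in PANC-1 were CHAC1, DDIT3, ATF3 (log2 1.52, SE 0.29), DDIT4 (1.11, SE 0.17), TRIB3 (0.78, SE 0.20) and CEBPG (0.64, SE 0.12). Lower in PANC-1 were SESN2 (-0.54, SE 0.17) and PPP1R15A (-0.51, SE 0.18). The ATF3 level was low, at 1.49 and 1.38 FPKM in Mia-PaCa-2, from 44 and 21 counts. The SESN2 call was lost without replicate 1 of the Mia-PaCa-2 controls (adjusted p = 0.0653) or replicate 2 of the PANC-1 controls (0.162), and the PPP1R15A call without replicate 1 (0.0588) or 2 (0.101) of the Mia-PaCa-2 controls or replicate 2 of the PANC-1 controls (0.377). After a correction for GC content the TRIB3 difference was 0.20 on the log2 scale and no longer called, and CEBPB, at 0.22 before it (adjusted p = 0.3), was at -0.81 (adjusted p = 0.00176).

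Gemcitabine raised ATF3 and PPP1R15A in both lines and raised DDIT3 strongly in PANC-1. ATF3 stood at 5.403 and 5.385 FPKM in Mia-PaCa-2 with gemcitabine, against 1.49 and 1.38 FPKM in its controls. In PANC-1 it stood at 72.5 and 72.6 FPKM against 3.82 and 2.81 FPKM. Treated and control libraries were thus far apart in each line, with log2 fold changes of 1.98 (SE 0.30, adjusted p = 0.000326) and 4.03 (SE 0.14, adjusted p = 5.01e-05).

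DDIT3 rose in PANC-1 from 29.5 and 31.5 FPKM to 162 and 167 FPKM, which was 4.94-fold (log2 2.30, SE 0.11, adjusted p = 0.000357). In Mia-PaCa-2 the gemcitabine libraries had 13.3 and 11.5 FPKM, both above the controls at 10.5 and 10.5 FPKM, and the log2 fold change of 0.14 did not pass the test (95% interval -0.20 to 0.48, adjusted p = 0.51). MARS1, whose exons overlap those of DDIT3, was at a log2 fold change of -0.23 in PANC-1 (adjusted p = 0.172) and fell by 0.69 in Mia-PaCa-2 (adjusted p = 7.51e-05).

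ATF4 itself went down in Mia-PaCa-2. Its FPKM was 62.2 and 63.4 with gemcitabine against 106.9 and 103.9 in the controls, a fall of 1.78-fold (log2 -0.83, SE 0.09, adjusted p = 2.51e-05). In PANC-1 the gemcitabine libraries had 158 and 159 FPKM, above the controls at 129 and 114.5 FPKM, and the log2 fold change of 0.26 was not called (adjusted p = 0.138).

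The feedback gene PPP1R15A was at 16.5 and 14.5 FPKM with gemcitabine in Mia-PaCa-2, against 9.54 and 9.91 FPKM (log2 0.55, SE 0.12, adjusted p = 0.00394). In PANC-1 it was at 25.96 and 22.98 FPKM against 8.24 and 6.20 FPKM (log2 1.68, SE 0.18, adjusted p = 0.00312). DDIT4 fell in PANC-1, from 125 and 97.2 FPKM to 47.7 and 41.2 FPKM (log2 -1.43, SE 0.18, adjusted p = 0.00557). In Mia-PaCa-2 it was at 46.6 and 40.9 FPKM against 48.2 and 50.3 FPKM (log2 -0.32, adjusted p = 0.0471), which is short of the fold required for a call. TRIB3, CHAC1 and SESN2 were called by the main limma-voom fit in neither line. A fit of only the libraries compared called CHAC1 in Mia-PaCa-2 (log2 0.55, adjusted p = 0.0326). After the GC correction DDIT4 in Mia-PaCa-2 was called at -0.63 (adjusted p = 1.95e-05) and SESN2 in PANC-1 at 0.60 (adjusted p = 0.001).

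In all, 5 members were called in Mia-PaCa-2 (3 higher, 2 lower), against 29.6% of the 16064 genes tested (15% higher, 14.6% lower), and 5 in PANC-1 (4 higher, 1 lower), against 7.52% of 16909 genes (4.49% higher, 3.03% lower). The median log2 fold change over the 10 members was 0.13 in Mia-PaCa-2 and 0.48 in PANC-1, against -0.01 and 0.03 over all genes tested. The C/EBP partners made up the rest. CEBPB in Mia-PaCa-2 was at 8.05 and 8.85 FPKM against 5.64 and 5.87 FPKM (log2 0.43, SE 0.15, adjusted p = 0.0392). CEBPG went opposite ways, to 10.2 and 8.58 FPKM from 11.99 and 11.5 FPKM in Mia-PaCa-2 (log2 -0.44, SE 0.12, adjusted p = 0.0114) and to 29.04 and 30.8 FPKM from 17.0 and 20.2 FPKM in PANC-1 (log2 0.56, SE 0.13, adjusted p = 0.035). In FPKM the treated and control libraries of these genes did not overlap, and how often this held among all genes was not counted. The epithelial marker KRT19 fell under gemcitabine in both lines (log2 -1.40 and -0.83), as it did with both drugs (-1.70 and -1.26). In PANC-1 CDH1 fell too (-1.57 with gemcitabine, -1.78 with both drugs), and KRT8 fell with both drugs (-0.77). In all 1 of 3 epithelial markers tested in Mia-PaCa-2 and 2 of 5 in PANC-1 fell under gemcitabine, and 1 of 3 and 3 of 5 with both drugs. With genistein alone KRT18 was called higher in Mia-PaCa-2 (log2 0.42, adjusted p = 0.0182), as 1 of 3. The log2 fold change was positive for 3 of 3 there. In PANC-1 0 of 5 were called with genistein, and 1 of 5 was positive. The part of these markers in the results was not tested.

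Not all of these calls held when a library was left out. In Mia-PaCa-2, without control replicate 1, PPP1R15A (adjusted p = 0.0521), CEBPB (0.206) and CEBPG (0.101) were lost. CEBPB was also lost without control replicate 2 (0.115) or gemcitabine replicate 1 (0.068) or 2 (0.205), and CEBPG without gemcitabine replicate 2 (0.113). In PANC-1, DDIT4 was lost without gemcitabine replicate 1 (0.0555) or 2 (0.0836) and PPP1R15A without gemcitabine replicate 1 (0.0513). CEBPG in PANC-1 was lost without control replicate 1 (0.0925), gemcitabine replicate 1 (0.16) or 2 (0.243), or genistein replicate 1 (0.0944) or 2 (0.0943). After the GC correction CEBPB in Mia-PaCa-2 was at -0.16, PPP1R15A there at 0.29, CEBPG there at -0.27 and in PANC-1 at 0.38, none of them called. The median over the members in Mia-PaCa-2 was then -0.18, with gemcitabine libraries at GC slopes of 0.13 and 0.05 beside -0.21 and -0.13 in the controls. ATF3 in both lines, ATF4 in Mia-PaCa-2 and DDIT3 in PANC-1 were called under each alternative and with each library left out.

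**Figure D2:**
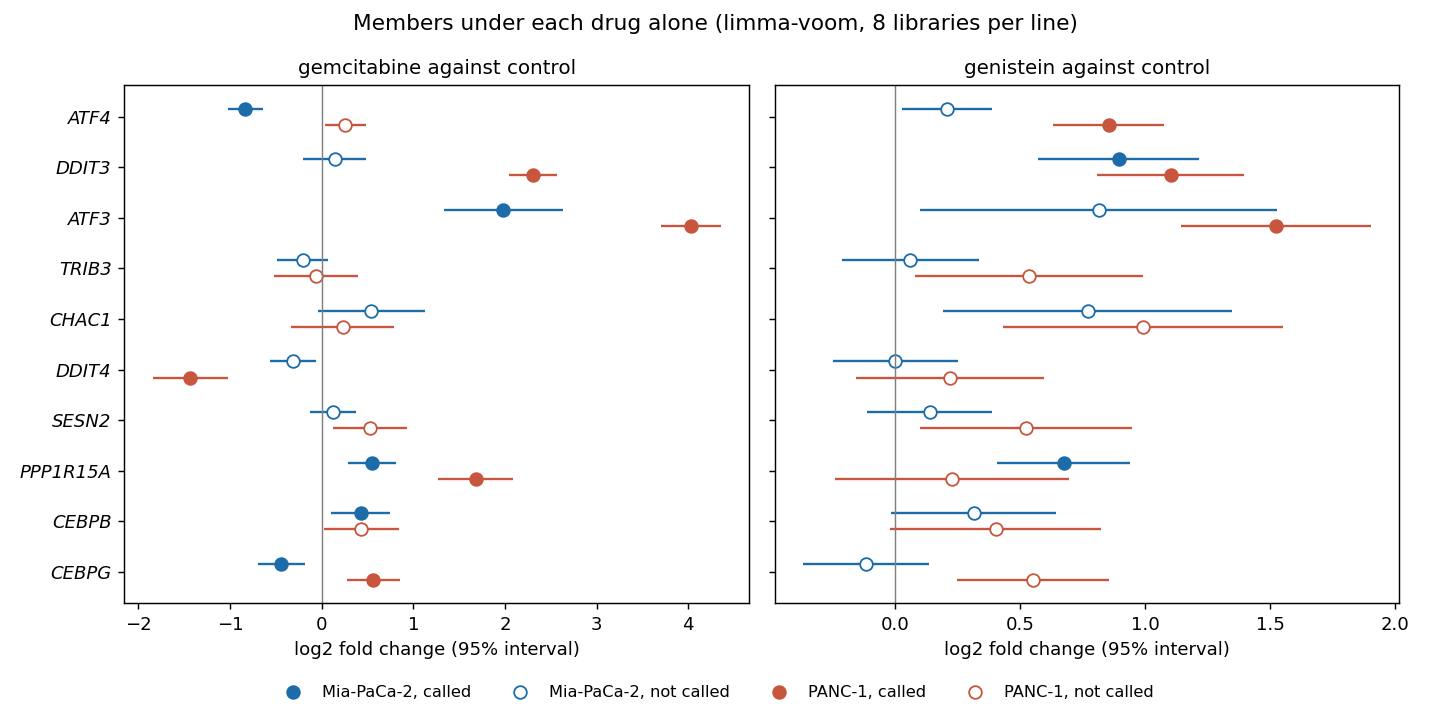
Log2 fold changes of the 10 members (points) with 95% intervals (bars) for gemcitabine against control (left) and genistein against control (right), in Mia-PaCa-2 (blue) and PANC-1 (red); filled points were called. Under gemcitabine ATF4, DDIT3, ATF3, DDIT4, PPP1R15A and CEBPG lie apart in the 2 lines, and under genistein most points lie above 0.

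To compare the lines in their answer to gemcitabine, all 16 libraries entered a single model. The difference between lines, PANC-1 minus Mia-PaCa-2, passed the adjusted p in 6 of 10 members, against 15.3% of 17863 genes (6.21% with a positive and 9.06% with a negative difference). It was 2.07 for DDIT3 (SE 0.17, adjusted p = 3.42e-05), 1.95 for ATF3 (SE 0.34, adjusted p = 0.00342), 1.04 for PPP1R15A (SE 0.24, adjusted p = 0.0146), 0.99 for ATF4 (SE 0.14, adjusted p = 0.000842) and 0.91 for CEBPG (SE 0.17, adjusted p = 0.0042) on the log2 scale. For DDIT4 it was -1.22 (SE 0.26, adjusted p = 0.00903). CEBPG thus moved in opposite directions in the lines, and ATF4 fell in Mia-PaCa-2 while its 0.26 in PANC-1 was not called by itself. The difference for ATF3 was lost without replicate 1 of the Mia-PaCa-2 controls (adjusted p = 0.0621). That for DDIT4 was lost without the same library (0.055) or without replicate 2 of PANC-1 with gemcitabine (0.0515). That for PPP1R15A was lost without replicate 1 (0.0534) or 2 (0.0572) of the Mia-PaCa-2 controls or replicate 2 of Mia-PaCa-2 with gemcitabine (0.0681).

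Genistein raised DDIT3 in both lines. In Mia-PaCa-2 it was at 19.2 and 20.02 FPKM against 10.5 and 10.5 FPKM in the controls (log2 0.89, SE 0.15, adjusted p = 0.00398). In PANC-1 it was at 70.1 and 64.8 FPKM against 29.5 and 31.5 FPKM (log2 1.10, SE 0.13, adjusted p = 0.0499). The groups did not overlap in either line, and the rises were 1.86-fold and 2.15-fold.

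The other calls differed between the lines. In Mia-PaCa-2 PPP1R15A was at 15.99 and 14.7 FPKM against 9.54 and 9.91 FPKM (log2 0.67, SE 0.12, adjusted p = 0.00595). In PANC-1 ATF4 was at 217.8 and 218 FPKM against 129 and 114.5 FPKM (log2 0.85, SE 0.10, adjusted p = 0.0441). ATF3 in PANC-1 was at 9.64 and 11.5 FPKM against 3.82 and 2.81 FPKM (log2 1.52, SE 0.16, adjusted p = 0.0395). ATF4 in Mia-PaCa-2, at 118 and 122 FPKM against 106.9 and 103.9 FPKM, was higher in both libraries but not called (log2 0.21, adjusted p = 0.122).

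The members called were 2 of 10 in Mia-PaCa-2, against 8.31% of genes (4.18% higher, 4.13% lower), and 3 of 10 in PANC-1, against 0.0591%, or 10 of 16909 genes, all of them higher. The members called were higher in both lines. All 3 PANC-1 calls lay just under the threshold. All 3 were lost when any control, gemcitabine or genistein library of that line was left out, with adjusted p from 0.0531 without control replicate 1, for ATF4, to 0.66 without genistein replicate 2. Their log2 fold changes stayed between 0.69 and 0.91 for ATF4, between 0.99 and 1.13 for DDIT3 and between 1.35 and 1.60 for ATF3. Under the GC correction 9 members were called in PANC-1, where 7.24% of all genes were then called, and under the Wald test of DESeq2 5 members, with 4.46% of all genes. In Mia-PaCa-2 both calls were lost without control replicate 1 (DDIT3 adjusted p = 0.0663, PPP1R15A 0.0878), and PPP1R15A also without control replicate 2 (0.0556).

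The direction was shared more widely than the calls. The log2 fold change under genistein was positive for 9 of 10 members in Mia-PaCa-2, with a median of 0.26, and for 10 of 10 in PANC-1, with a median of 0.54. Over all genes tested the medians were -0.004 and 0.05. CHAC1, which lowers cellular glutathione, was at 6.30 and 6.79 FPKM against 4.41 and 3.82 FPKM in Mia-PaCa-2 (log2 0.77, adjusted p = 0.0798) and at 30.8 and 31.2 FPKM against 17.4 and 13.4 FPKM in PANC-1 (log2 0.99, adjusted p = 0.121). Treated libraries lay above controls in both lines, and limma-voom called CHAC1 in neither. It was called in Mia-PaCa-2 and PANC-1 by DESeq2 (adjusted p = 0.0393 and 0.0118), after the GC correction (log2 0.78 and 1.48, adjusted p = 0.0126 and 0.000645) and in a fit of only the libraries compared (0.00961 and 0.0345). No member passed the adjusted p for a difference between the lines in the genistein response, by limma-voom or by edgeR's quasi-likelihood test, where 0.0336% of all genes did by limma-voom. Unadjusted p was under 0.05 for 2 members, against 2057 of 17863 genes. They were ATF4 (log2 0.59, adjusted p = 0.152) and CEBPG (0.62, adjusted p = 0.247). The Wald test of DESeq2 called both (adjusted p = 0.00677 and 0.0354), with 1.04% of all genes. After the GC correction 4 members passed, with 2.58% of all genes.

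Addition of genistein to gemcitabine raised CHAC1, ATF3, DDIT3, PPP1R15A and ATF4 in Mia-PaCa-2. CHAC1 was at 12.4 and 16.8 FPKM with both drugs against 6.76 and 4.66 FPKM with gemcitabine alone (log2 1.294, SE 0.22, adjusted p = 0.00511). ATF3 was at 12.03 and 14.7 FPKM against 5.403 and 5.385 FPKM (log2 1.16, SE 0.19, adjusted p = 0.0042). DDIT3 was at 23.1 and 18.9 FPKM against 13.3 and 11.5 FPKM (log2 0.77, SE 0.14, adjusted p = 0.0077). For each of these genes the co-treated libraries lay above both gemcitabine libraries.

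PPP1R15A, at 20.2 and 23.0 FPKM against 16.5 and 14.5 FPKM, rose by 0.52 (SE 0.11, adjusted p = 0.0164) on the log2 scale. ATF4, at 88.1 and 83.5 FPKM against 62.2 and 63.4 FPKM, rose by 0.45 (SE 0.09, adjusted p = 0.0104). The co-treated ATF4 libraries still lay below the controls at 106.9 and 103.9 FPKM. These 5 of 10 members compare with 5.88% of the 16064 genes, 4.05% being higher and 1.83% lower. The median over the members was 0.44, against -0.01 over all genes. Without gemcitabine replicate 1 the calls of ATF4 (adjusted p = 0.127), DDIT3 (0.0777), ATF3 (0.0954) and PPP1R15A (0.0893) were lost. Without gemcitabine replicate 2 those of ATF4 (0.0629), DDIT3 (0.105), CHAC1 (0.0956) and PPP1R15A (0.165) were lost, and without replicate 2 of both drugs that of PPP1R15A (0.0613). ATF4 was also lost after the GC correction, at 0.38, and PPP1R15A with all 16 libraries in a single model (0.117). Under limma-trend on FPKM the calls of ATF4 (0.0524), DDIT3 (0.0652), CHAC1 (0.0506) and PPP1R15A (0.144) were lost.

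In PANC-1 no member was called when genistein was added, against 0.0177% of genes (3 of 16909, 0.0118% higher and 0.00591% lower), and edgeR's quasi-likelihood test called none either. All 10 log2 fold changes were positive, with a median of 0.36 against -0.02 over all genes, of which 7992 of 16909 were positive. Unadjusted p was under 0.05 for 5 members and for 2262 of the 16909 genes. CHAC1 was at 38.7 and 57.2 FPKM with both drugs against 23.5 and 17.2 FPKM with gemcitabine (log2 1.25, SE 0.23, adjusted p = 0.117). DDIT3 was at 270.2 and 246 FPKM against 162 and 167 FPKM (log2 0.60, SE 0.09, adjusted p = 0.111). The co-treated libraries of both genes lay above the gemcitabine libraries. The Wald test of DESeq2 called these 2 members, with 1.22% of all genes, and the GC correction called them and TRIB3, with 7.33% of all genes.

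**Figure D3:**
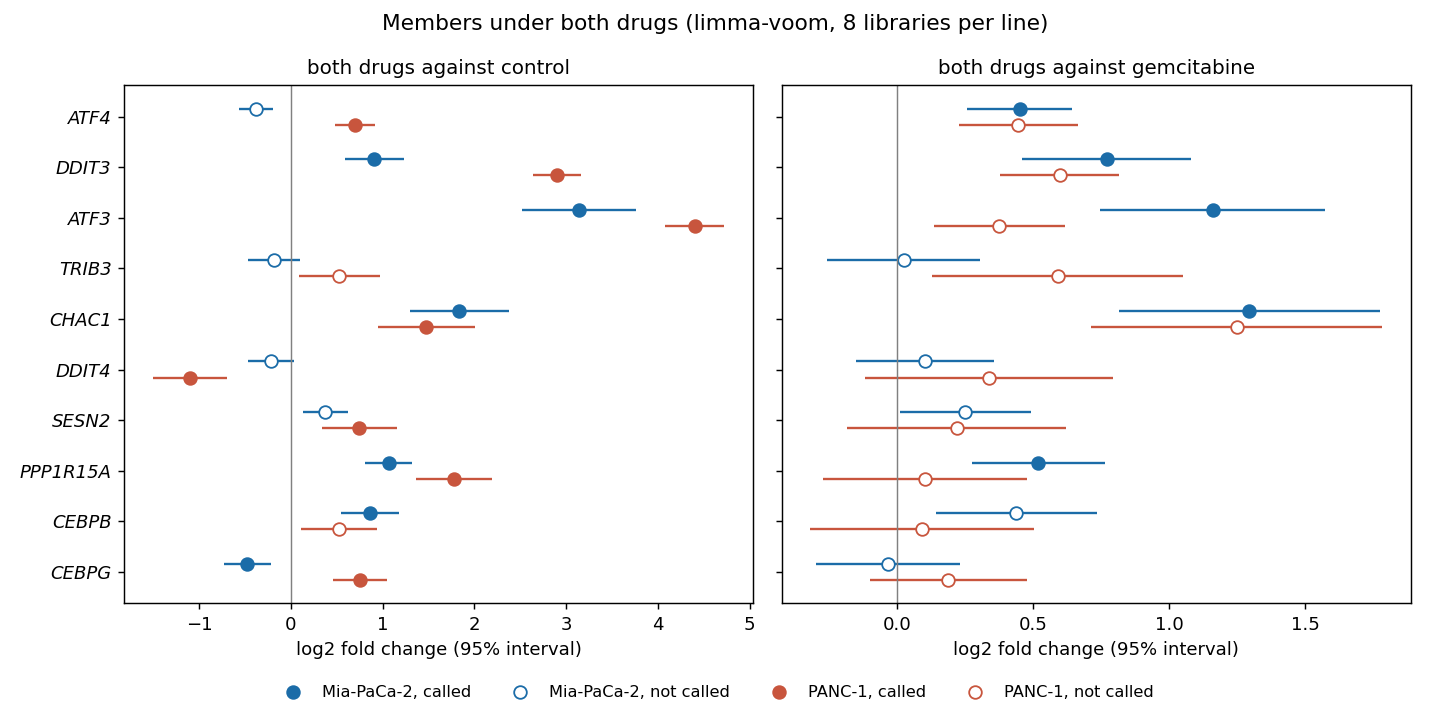
Log2 fold changes of the 10 members (points) with 95% intervals (bars) for both drugs against control (left) and both drugs against gemcitabine (right), in Mia-PaCa-2 (blue) and PANC-1 (red); filled points were called. Against control ATF3 lies at 3.14 and 4.40, and against gemcitabine CHAC1 lies at 1.294 and 1.25 in the 2 lines.

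With both drugs, against control, ATF3, DDIT3, CHAC1 and PPP1R15A were higher in both lines. ATF3 reached 12.03 and 14.7 FPKM in Mia-PaCa-2 (log2 3.14, SE 0.29, adjusted p = 2.95e-06) and 97.1 and 95.9 FPKM in PANC-1 (log2 4.40, SE 0.14, adjusted p = 2.38e-05). DDIT3 rose by 0.91 (SE 0.15) and 2.90 (SE 0.11), CHAC1 by 1.84 (SE 0.25) and 1.48 (SE 0.23) and PPP1R15A by 1.07 (SE 0.12) and 1.78 (SE 0.18) on the log2 scale in Mia-PaCa-2 and PANC-1. In co-treated PANC-1 the DDIT3 messenger, at 270.2 and 246 FPKM, exceeded that of ATF4, at 219.9 and 226 FPKM, whereas in the PANC-1 controls it was at 29.5 and 31.5 FPKM against 129 and 114.5 FPKM.

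The remaining calls were made in a single line or in opposite directions, and no difference between the lines was tested for both drugs. CEBPB rose in Mia-PaCa-2 by 0.86 (SE 0.15, adjusted p = 0.000346), with 0.52 in PANC-1 (adjusted p = 0.0767), and CEBPG fell by 0.47 (SE 0.12, adjusted p = 0.0053). In PANC-1 CEBPG rose to 39.2 and 31.6 FPKM, by 0.75 (SE 0.13, adjusted p = 0.00651), SESN2 from 7.95 and 6.77 to 11.8 and 15.8 FPKM, by 0.75 (SE 0.18, adjusted p = 0.0226) and ATF4 by 0.70 (SE 0.09, adjusted p = 0.00276). SESN2 in Mia-PaCa-2 was at 0.38 (adjusted p = 0.0143), short of the fold required. DDIT4 in PANC-1 fell by 1.10 (SE 0.18, adjusted p = 0.00543), from 125 and 97.2 FPKM to 49.9 and 65.9 FPKM. ATF4 in Mia-PaCa-2 stayed below control, at a log2 fold change of -0.38 that was short of the fold required (adjusted p = 0.00239). It was called at -0.73 after the GC correction (adjusted p = 3.48e-05), and at -0.41 without control replicate 2 and -0.40 without replicate 1 of both drugs.

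The calls against control numbered 6 of 10 in Mia-PaCa-2, where 40.5% of genes were called (20.3% higher, 20.2% lower), and 8 of 10 in PANC-1, where 17.1% were (10.2% higher, 6.9% lower). The median over the members was 0.62 and 0.75, against -0.01 and 0.01 over all genes. In PANC-1 a fit of only the libraries compared lost the calls of ATF4 (adjusted p = 0.0553), DDIT4 (0.0553), CEBPG (0.0747) and SESN2 (0.124). CEBPG in Mia-PaCa-2 was at -0.26 after the GC correction, short of the fold required, was lost without control replicate 1 (adjusted p = 0.0528) and, for its fold alone, without replicate 2 of both drugs (0.0421). SESN2 in PANC-1 was lost without control replicate 2 (0.0975), either genistein library (0.0631) or replicate 2 of both drugs (0.0945). CEBPB in Mia-PaCa-2 was at 0.29 after the GC correction and no longer called (adjusted p = 0.114), whereas in PANC-1 it was at 0.65 and called (0.0236), with co-treated Mia-PaCa-2 libraries at GC slopes of 0.03 and 0.26.

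Against genistein alone, both drugs gave 4 calls in each line, where 31.5% of genes were called in Mia-PaCa-2 (16.6% higher, 14.9% lower) and 8.18% in PANC-1 (3.87% higher, 4.31% lower). In PANC-1 ATF3 (log2 2.88, SE 0.13), DDIT3 (1.80, SE 0.11) and PPP1R15A (1.55, SE 0.19) were higher and DDIT4 (-1.32, SE 0.18) was lower. In Mia-PaCa-2 ATF3 (2.32, SE 0.23), CHAC1 (1.07, SE 0.22) and CEBPB (0.55, SE 0.14) were higher and ATF4 (-0.59, SE 0.08) was lower. DDIT3 in Mia-PaCa-2 was at 23.1 and 18.9 FPKM with both drugs and at 19.2 and 20.02 FPKM with genistein, which overlap (log2 0.01, 95% interval -0.27 to 0.30). The PANC-1 calls of DDIT4 (adjusted p = 0.119 and 0.102) and PPP1R15A (0.0869 and 0.0969) were lost without genistein replicate 1 or 2. After the GC correction CEBPB in Mia-PaCa-2 was at -0.08. The comparisons of one line share libraries, so that their values are not independent of each other.

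Whether the effect of both drugs departs from the sum of the single effects on the log2 scale was tested as an interaction. No member passed the adjusted p in either line by limma-voom or edgeR, where 0.0249% of genes did in Mia-PaCa-2 and 0% in PANC-1. In Mia-PaCa-2 no member had an unadjusted p under 0.05, against 1346 of 16064 genes, and DESeq2 called none. In PANC-1 3 members had such a p, against 832 of 16909 genes. All 3 had negative values: ATF3 (-1.15, SE 0.20, unadjusted p = 0.000384, adjusted p = 0.734), DDIT3 (-0.51, SE 0.16) and ATF4 (-0.41, SE 0.13). Of these, ATF3 was called by the Wald test of DESeq2 (adjusted p = 0.0276), with 0.0237% of all genes.

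The order of the 4 groups by mean FPKM was shared by several members. In PANC-1 the means of DDIT3, ATF3, SESN2, PPP1R15A, CEBPB and CEBPG ran from control through genistein and gemcitabine to both drugs. In FPKM the replicates of neighbouring groups did not overlap for DDIT3, ATF3 and CEBPG. Gemcitabine and both drugs overlapped for SESN2, PPP1R15A and CEBPB, genistein and gemcitabine also for SESN2 and CEBPB, and control and genistein for PPP1R15A. Against control the log2 fold changes of CEBPG were nearly the same with genistein (0.55, SE 0.13) and gemcitabine (0.56, SE 0.13). The step between those groups thus depends on the scale. CHAC1 there ran from control through gemcitabine and genistein to both drugs, with overlap between control and gemcitabine. ATF4 had the same order by FPKM, but its normalised counts were not higher with both drugs than with genistein (log2 -0.15, adjusted p = 0.344), so that the order of those groups depends on the scale. In Mia-PaCa-2 ATF3 and CEBPB ran from control through genistein and gemcitabine to both drugs, with overlap between control and genistein for ATF3. For CEBPB the log2 fold changes against control were close with genistein (0.31, SE 0.15) and gemcitabine (0.43, SE 0.15). SESN2 and PPP1R15A had that order by FPKM, whereas their log2 fold changes against control were no smaller with genistein (0.14 and 0.67) than with gemcitabine (0.13 and 0.55), and the PPP1R15A libraries of those groups overlapped. ATF4 had its lowest mean with gemcitabine and its highest with genistein, with no overlap between neighbours.

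TRIB3, which restrains ATF4 and CHOP, was called by the main limma-voom fit in no drug comparison within a line. It was at 11.6 and 12.6 FPKM in the Mia-PaCa-2 controls, and its group means there differed by 1.11-fold at most. In PANC-1 it was at 24.5 and 19.2 FPKM in the controls, 31.1 and 30.8 FPKM with genistein and 29.1 and 40.0 FPKM with both drugs. Its libraries with genistein, alone or combined, lay above the control libraries, and the log2 fold changes of 0.54 and 0.53 had adjusted p of 0.208 and 0.0916. After the GC correction TRIB3 was called lower in Mia-PaCa-2 with gemcitabine (log2 -0.54, adjusted p = 0.000333), with both drugs against control (-0.58, 0.000128) and with both drugs against genistein (-0.61, 0.000104). In PANC-1 it was then called higher with genistein (0.80, 0.00306), with both drugs against control (0.54, 0.000685) and with both drugs against gemcitabine (0.53, 0.00951). With both drugs against control in PANC-1, limma-voom also called TRIB3 with scaling by library size alone (0.69, 0.0308). It did so too with all 16 libraries in a single model (0.50, 0.0483).

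Other targets of ATF4 and CHOP formed a list of 34 genes, 30 of which were tested in Mia-PaCa-2 and 32 in PANC-1. ASNS, the asparagine synthetase, was called higher with genistein in both lines (log2 0.45, SE 0.08, adjusted p = 0.00606 in Mia-PaCa-2 and 1.10, SE 0.09, adjusted p = 0.0264 in PANC-1). It was also called when genistein was added to gemcitabine (0.96, SE 0.08, adjusted p = 0.000272 and 1.12, SE 0.09, adjusted p = 0.0122). Under genistein 2 genes of the list were called higher and 0 lower in each line. Of all genes 4.18% were called higher in Mia-PaCa-2 and 0.0591% in PANC-1, with 4.13% and 0% lower. The log2 fold change was positive for 19 of 30 genes in Mia-PaCa-2, with a median of 0.02, against 7952 of 16064 among all genes. In PANC-1 it was positive for 30 of 32, with a median of 0.30, against 9496 of 16909. The other calls were AARS1 (log2 0.42) in Mia-PaCa-2 and NIBAN1 (1.90) in PANC-1, named after their values were seen. SLC7A11, also named after its values were seen, was at -1.36 in Mia-PaCa-2 (adjusted p = 0.00131) and 0.49 in PANC-1 (0.455). In Mia-PaCa-2 only its mean FPKM, which was not above 1 with genistein, kept it from being called lower. The DESeq2 test called 9 of the 32 genes higher in PANC-1, with 4.46% of all genes called in either direction.

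Gemcitabine lowered more genes of the list than it raised in Mia-PaCa-2, with 10 called lower and 4 higher of 30, where 14.6% and 15% of all genes were called lower and higher. The 10 held 4 tRNA synthetases, WARS1 (log2 -0.72), GARS1 (-0.54), MARS1 (-0.69) and SARS1 (-0.52), and PSAT1 of serine synthesis (-0.71), all named after their values were seen. GDF15, a secreted stress factor that was also named after its values were seen, rose there by 2.18 (adjusted p = 9.91e-05). In PANC-1 2 genes were called higher and 1 lower of 32, where 4.49% and 3.03% of all genes were. The list's median log2 fold change was 0.06 there, against -0.20 in Mia-PaCa-2. SLC1A4 and NIBAN1 were higher in both lines (0.64 and 0.62, 0.53 and 1.14) and SLC7A5 lower in both (-0.46 and -0.63), also named after their values were seen. With genistein added to gemcitabine 8 of 30 genes were called higher and 2 lower in Mia-PaCa-2. In PANC-1 1 of 32, ASNS, was called higher and 0 lower. Of all genes 4.05% were called higher and 1.83% lower in Mia-PaCa-2, and 0.0118% and 0.00591% in PANC-1. Unadjusted p was under 0.05 for 13 of the 32 in PANC-1, against 2262 of 16909 genes. DESeq2 called 8 of them higher, with 1.22% of all genes called in either direction.

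**Figure D4:**
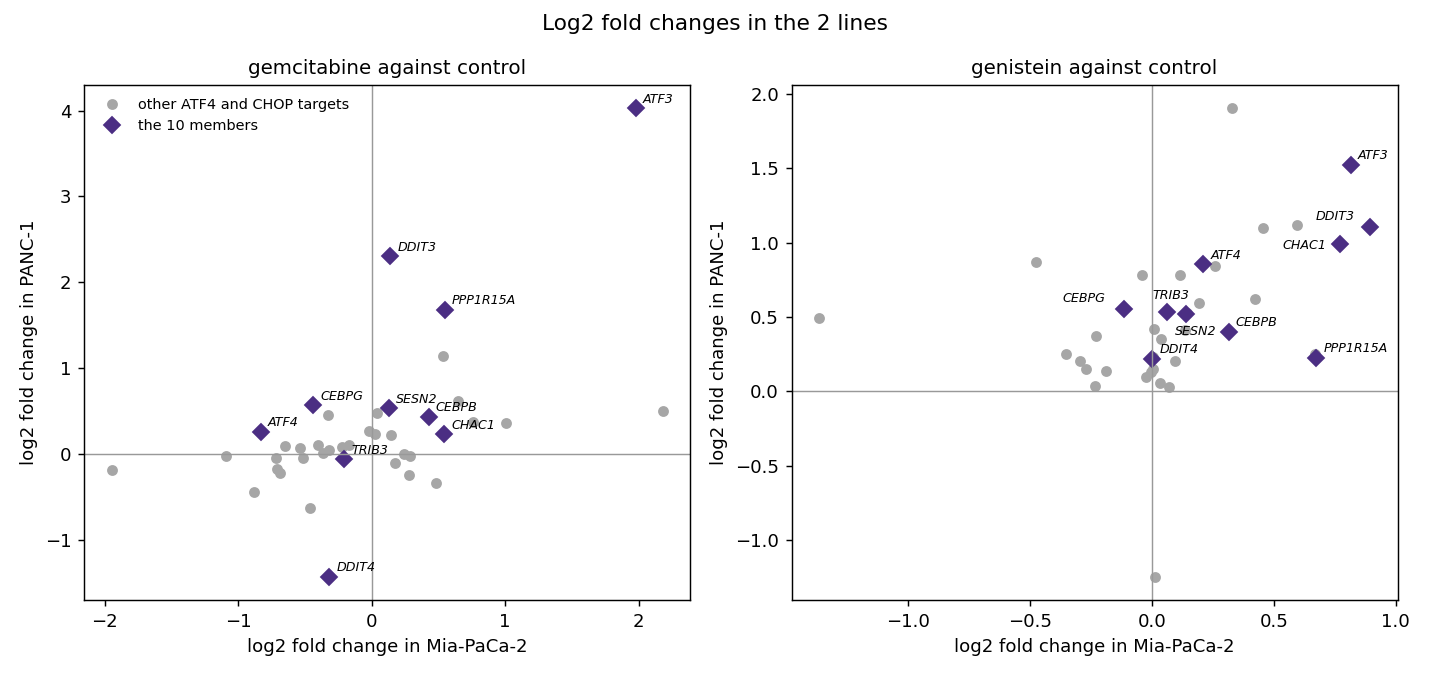
Log2 fold change in Mia-PaCa-2 (x axis) against PANC-1 (y axis) under gemcitabine (left) and genistein (right), for the 10 members (purple diamonds) and the other ATF4 and CHOP targets tested in both lines (grey). Under gemcitabine ATF3 lies at 1.98 and 4.03 and ATF4 at -0.83 and 0.26, and under genistein all 10 members lie above 0 on the PANC-1 axis.

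The components upstream of ATF4 gave no call by limma-voom under genistein. Of 15 genes for the eIF2 kinases, eIF2 and eIF2B, 0 were called with genistein in either line by limma-voom. Unadjusted p was under 0.05 for 6 in Mia-PaCa-2 and 3 in PANC-1. Over all genes it was so for 4391 of 16064 and 3252 of 16909, which also applies to the lists below under genistein. For these genes edgeR called 0 in each line and DESeq2 called 0 in Mia-PaCa-2 and 1 in PANC-1, where it called 4.46% of all genes. With both drugs against control 5 of the 15 were called lower in Mia-PaCa-2, where 20.2% of all genes were, and 0 in PANC-1. In PANC-1 6 had an unadjusted p under 0.05, as had 5766 of 16909 genes, and edgeR and DESeq2 called 0. The targets of ATF6 and XBP1, which serve protein folding in the endoplasmic reticulum, had 0 calls among 18 under genistein in each line by limma-voom, with an unadjusted p under 0.05 for 3 and 6. edgeR called 0 in each line and DESeq2 0 in Mia-PaCa-2 and 1, lower, in PANC-1. With both drugs against control 6 of these 18 were called higher in Mia-PaCa-2 and 2 in PANC-1, where 20.3% and 10.2% of all genes were. Paralogs of the members, such as ATF5 and SESN1, had 4 of 11 called higher with gemcitabine in Mia-PaCa-2 and 0 of 9 in PANC-1, 1 gene being called lower in each line. Of all genes 15% and 4.49% were called higher, and 14.6% and 3.03% lower, in these comparisons. With genistein 0 were called in either line by limma-voom, edgeR or DESeq2, with an unadjusted p under 0.05 for 2 and 3 of them.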

How the data were processed

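The authors sequenced poly-A libraries (TruSeq Stranded) as single reads of 16 samples. Per the study's methods and the submitters' processing notes, mapping to GRCh37 used TopHat2 2.0.4, Picard 1.29 served to discard multiply mapped reads, HTSeq 0.6.1 gave the deposited raw counts per gene, and Cufflinks 2.1.1 gave the deposited FPKM per gene and isoform; the annotation release is not given in the sources used here. Counts were tested here with limma-voom (limma 3.58.1, R 4.3.3) after TMM normalization and the low-count filter of edgeR 4.0.16, with the 8 libraries of a line in one model and all 16 for comparisons of lines. The call thresholds are those of the study, FPKM being taken in the first-named group, or in either line for the controls. Interactions and line differences were judged by adjusted p alone. The study reported more genes regulated by genistein in both lines than were called here in PANC-1 by itself. The same held for genistein added to gemcitabine, and the cause was not tested. Each gene's spread, from 2 replicates a group, was moderated across genes. The members and lists were chosen with earlier results of these data known. Named are all members, from other lists the genes called in the same direction in both lines for genistein or its addition to gemcitabine (at most 2 per direction), and the 5 genes most correlated with ATF4 and with DDIT3; other names came later and are marked. Alternatives were edgeR, DESeq2 1.42.0, other normalizations, filters and models, limma-trend on log2(FPKM + 1), a replicate block, a GC correction (loess, span 0.3, degree 1, on GENCODE v44 exons lifted to GRCh37) and each library left out. The procedure was also run on simulated counts, for genistein against control alone in each line. The simulated libraries did not differ in GC slope, so that the run does not bear on the calls above.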

Additional observations from a re-analysis of the deposited data

Results flagged for a closer look

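In 6 members the gemcitabine response differed between the lines by a test of the difference itself, PANC-1 minus Mia-PaCa-2 on the log2 scale, by limma-voom on all 16 libraries. The difference was 2.07 for DDIT3, 1.95 for ATF3, 1.04 for PPP1R15A, 0.99 for ATF4, 0.91 for CEBPG and -1.22 for DDIT4. For these members the control levels differed between the lines too, except for ATF4. DDIT3 went from a mean of 10.5 to 12.4 FPKM in Mia-PaCa-2 and from 30.5 to 164 FPKM in PANC-1, and DDIT4 from 49.3 to 43.8 FPKM and from 110.9 to 44.5 FPKM. The differences for DDIT3, ATF4 and CEBPG passed the test with each library left out, and those for ATF3, PPP1R15A and DDIT4 did not, in the models named beside their values above. The GC slopes moved with gemcitabine in Mia-PaCa-2 and differed between the PANC-1 controls, and all 6 differences passed the test after the GC correction.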

How the results depend on the processing

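Of the 150 log2 fold changes of single members in 15 comparisons, 56 were called, 35 of these under every alternative that kept all libraries and 25 also with each library left out. A called value changed sign only for CEBPB, in 2 comparisons: after the GC correction it was -0.16 for gemcitabine in Mia-PaCa-2 (-0.15 with the replicate block as well) and -0.081 for both drugs against genistein there (-0.078). Its difference between the controls became -0.81 (-0.82). Of 94 values not called, 35 were called under some alternative and 37 changed sign.

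The number of members called moved most for genistein in PANC-1, from 3 to 0 with DESeq2's size factors or the replicate block, to 1 with limma-trend, to 5 with the DESeq2 test or all 16 libraries in one model, and to 9 with the GC correction, with or without the block (0 to 3 with a library left out). Both drugs against gemcitabine in PANC-1 went from 0 to 2 with DESeq2 and to 3 with the GC correction, with or without the block, or with all 16 libraries, and the line difference under genistein from 0 to 2 with DESeq2, 1 with library size alone and 4 with the GC correction, with or without the block (0 to 1). The PANC-1 interaction went from 0 to 1 with DESeq2, and both drugs against control there from 8 to 4 with only the libraries compared (7 to 9). In Mia-PaCa-2 gemcitabine went from 5 to 3 with all 16 libraries (2 to 6), genistein from 2 to 1 (0 to 3) and both drugs against gemcitabine from 5 to 1 (1 to 6) with limma-trend. With a library left out the counts were 2 to 5 for gemcitabine in PANC-1, 2 to 4 for both drugs against genistein in PANC-1, 5 to 8 and 4 to 6 for both drugs against control and against genistein in Mia-PaCa-2, 6 to 8 between controls and 3 to 6 for the line difference under gemcitabine. The causes were not tested.

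The labels link replicates I and II across groups only by number. Deviations of same-numbered libraries correlated from -0.30 to 0.16 between groups in Mia-PaCa-2 and from -0.57 to 0.33 in PANC-1. These values cannot decide whether same-numbered libraries were handled together. Besides genistein in PANC-1, the replicate block ended the calls of CEBPG under gemcitabine (adjusted p = 0.0804) and SESN2 under both drugs (0.0509) in PANC-1. Library size alone shifted the median of all genes by 0.10 to 0.16 on the log2 scale in 6 comparisons and raised the share of calls that were higher from 50.6% to 66.5% for gemcitabine in Mia-PaCa-2, from 59.7% to 78.6% for it in PANC-1 and from 59.7% to 79.9% for both drugs in PANC-1. Among all genes tested, some alternative moved the number called by over 1.5 times: it was 1335 (229 to 1833 over alternatives) for genistein in Mia-PaCa-2, 945 (down to 11.01% of that, and up to 1575) for both drugs against gemcitabine there, 1272 (470 to 3122) for gemcitabine in PANC-1, 10 (0 to 1224) for genistein in PANC-1, 2897 (574 to 5121), 3 (0 to 1239) and 1383 (449 to 3836) for both drugs against control, gemcitabine and genistein in PANC-1, 2728 (1625 to 4668) and 6 (0 to 460) for the line differences under gemcitabine and genistein, and 4 (0 to 93) and 0 (0 to 4) for the interactions in Mia-PaCa-2 and PANC-1. Each value rests on 2 libraries per group, and ATF3 in the Mia-PaCa-2 controls on 44 and 21 counts.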

Other observations

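The isoform table adds detail on where the ATF3 messenger begins. For ATF3 the transcript from the upstream start, at chr1:212738676 on GRCh37, took the largest share in each group, from 54.7% to 83.1% of the summed isoform FPKM. The transcript from the downstream start, at chr1:212782257, went from 0.03 FPKM in PANC-1 controls to 25.6 FPKM with gemcitabine and 33.0 FPKM with both drugs, the means of 2 libraries, and its share ranged from 0.9% to 57.9% between single libraries. For ATF4 a single transcript held 96.8% to 99.5%. Cufflinks divides short single reads between isoforms by a model, no error is attached to these shares here, and no test was made.

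The genes whose pattern over the 16 libraries was most like that of ATF4, with line means removed and over 13660 genes, were ATF4P4 (Pearson's r = 0.96), CIRBP (0.93), GARS (0.91), PSAT1P3 (0.89) and PSAT1 (0.89). ATF4P4 and PSAT1P3 are pseudogenes that can share reads with their parents. For DDIT3 they were TSPYL2 (0.96), ALKBH1 (0.94), SFR1 (0.94), PDLIM3 (0.94) and KATNA1 (0.94). Within the lines the DDIT3 values ran from 0.69 (ALKBH1) to 0.91 (SFR1) in Mia-PaCa-2 and from 0.95 (SFR1) to 0.98 (TSPYL2) in PANC-1, and the ATF4 values from 0.90 (PSAT1P3) to 0.97 (PSAT1) and from 0.84 (GARS) to 0.94 (ATF4P4). The points share treatment groups, so these values are a description. Among the members the median correlation over the 45 pairs was 0.02 across the 8 Mia-PaCa-2 libraries, with 23 pairs positive, and 0.65 across the 8 PANC-1 libraries, with 38 positive.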
